A study of Mus musculus with 6 samples.

Results

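The genes described here are 34 genes of the megakaryocyte and platelet program, taken by gene symbol from a table of 24110 genes measured in mouse hematopoietic stem cells. They cover adhesion receptors, granule and secreted proteins, receptors for platelet agonists, eicosanoid enzymes, membrane and cytoskeletal proteins and transcription factors. RNA was sequenced from Lineage- Sca-1+ CD48- CD150+ bone marrow cells of C57BL/6 mice. Prmt5 encodes an arginine methyltransferase, and 3 libraries from mice with an intact floxed allele (Prmt5 fl/fl) were set against 3 libraries from mice in which it had been deleted (Prmt5 KO, Prmt5 Δ/Δ). Cells were taken 7 days after induction, each library pooled 2 mice, and animals were matched by litter and sex. The labels name neither the Cre driver, nor the inducing agent, nor the ages of the mice. The series title asks how the enzyme bears on splicing, and the totals per gene used here speak only to transcript levels.

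Megakaryocytes are the large marrow cells that shed platelets. They arise by way of progenitors and also closely from stem cells, and a share of stem cells already carries platelet genes such as Itga2b and Vwf. Maturing megakaryocytes add the glycoprotein complexes that bind von Willebrand factor and collagen, the chemokines and adhesive proteins stored in alpha granules, and the tubulin and signaling proteins with which platelets are formed and respond to thrombin, ADP and thromboxane.

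Values are reads per gene scaled to 1 common library total, called scaled reads below. The libraries held 37834096 to 44704636 reads in genes, so counting error was small for all but the lowest members. Prmt5 itself was at 6010 to 6076 scaled reads in Prmt5 fl/fl and 897 to 1056 in Prmt5 KO (log2 fold change -2.60, limma adjusted p = 0.000618), so each library matched its label. The sorting gate gene Slamf1 (CD150) was at 3127 to 4489 scaled reads in Prmt5 fl/fl and 2731 to 3408 in Prmt5 KO. Ly6a (Sca-1) was at 4969 to 8266 and 5367 to 9401. Summed markers of stem cells lay at 57062 to 94670 and 77280 to 86725. Of these 9 markers, 6 had fold changes above 0 and 3 below (55.2% of tested genes below). Their median log2 fold change was 0.21, or 0.05 without Prmt5 fl/fl replicate 3. Limma called 0 of them, and DESeq2 called 1 higher (2.59% of tested genes). Summed markers of red cell precursors lay at 3911 to 13459 in Prmt5 fl/fl and 2204 to 2895 in Prmt5 KO, those of granulocytes and monocytes at 57135 to 201524 and 64146 to 558454, and those of mast cells and basophils at 362 to 10656 and 427 to 2536. Summed lymphocyte markers lay at 6273 to 9906 and 5525 to 6815, with the T cell gene Cd3e at 0 in Prmt5 KO replicate 1, and summed endothelial markers at 9499 to 13869 and 11365 to 14220, with Cdh5 at 0 in the same library.

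Prmt5 fl/fl replicate 3 stood apart in a way tied to gene length. Its log2 difference from the mean of the other Prmt5 fl/fl libraries had a Spearman correlation of -0.57 with gene length across 14113 tested genes, which share the library and are not independent. Genes shorter than 1500 bases had a median difference of 0.46 and genes of at least 6000 bases one of -0.75. Among the 34 genes the correlation was -0.75, with Nbeal2 (log2 difference -2.53), Thbs1 (-2.28), Zfpm1 (-1.66), Vwf (-1.42) and Itgb3 (-1.19) low in that library and Ppbp (1.11), Treml1 (0.93) and Pf4 (0.91) high. Rab27b, with 7120 bases, was near the other libraries (0.18). In Prmt5 KO replicate 1 the correlation was -0.26 over all tested genes and -0.62 over the 34. The part of length in the results was not tested beyond the values given below without Prmt5 fl/fl replicate 3 and with each library's length trend removed.

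**Figure D1:**
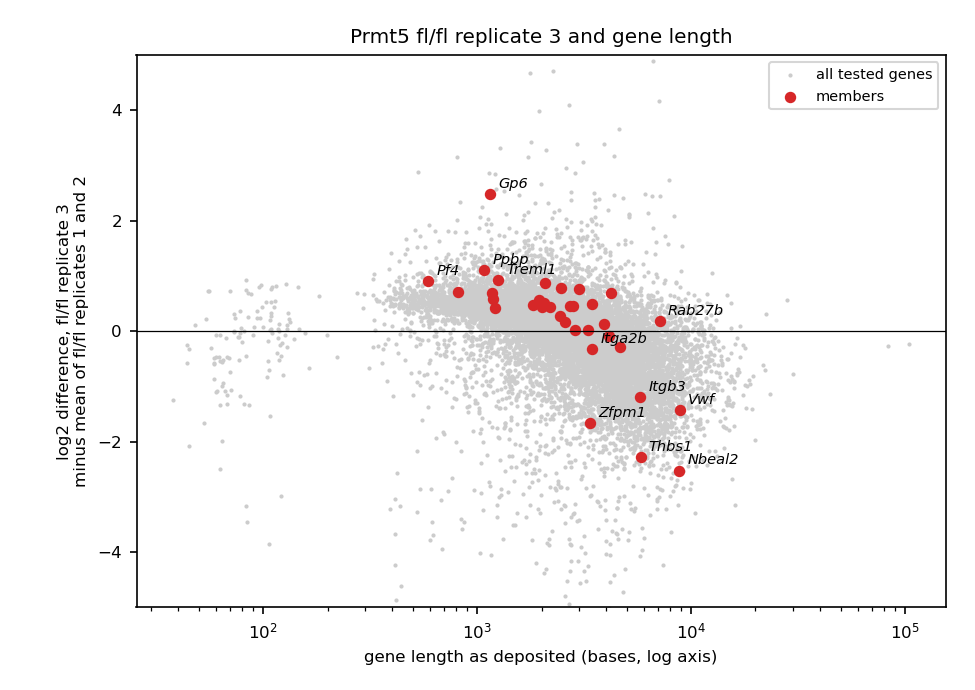
Log2 difference of Prmt5 fl/fl replicate 3 from the mean of Prmt5 fl/fl replicates 1 and 2 (vertical axis) against the deposited gene length in bases (log axis), with all tested genes in grey and the 34 genes in red. Long genes such as Nbeal2 (-2.53) and Vwf (-1.42) lie below 0 and short ones such as Pf4 (0.91) above it, and the vertical axis is limited to ±5.

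Of the 34 genes, 2 fell in Prmt5 KO, Itga2b and Rab27b, and 0 rose, where 0.453% of the 14113 genes tested were called lower and 0.276% higher (limma, adjusted p below 0.05 over all genes tested). All 34 passed the filter on low values, and 33 had at least 3 reads in every library. In 14 of them every Prmt5 KO library was below every Prmt5 fl/fl library, against 19.9% of tested genes, and in 2, Selp and Nbeal2, every Prmt5 KO library was above, against 8.3%. Fold changes were below 0 for 25 of the 34, against 55.2% of tested genes, and their median log2 fold change was -0.44 beside -0.05 over all genes tested. At an unadjusted p below 0.05, 13 were lower and 1 higher, against 13.6% and 4.58% of tested genes. The summed level of the 34 was 267021, 294561 and 299897 scaled reads in Prmt5 fl/fl and 241028, 188082 and 221331 in Prmt5 KO, so the sums did not overlap. In bulk RNA, fewer cells carrying a transcript and less of it per cell cannot be told apart.

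The number of calls moved with the library left out and with the tool, while the folds of Itga2b and Rab27b moved little. Without Prmt5 fl/fl replicate 3 limma called 9 of the 34 lower (Itga2b, Rab27b, Gp5, Treml1, Vwf, Mmrn1, P2rx1, P2ry1 and Zfpm1) and 0 higher, where 1.82% of tested genes were called lower and 0.857% higher. Without any other single library it called 0 of them, where it called only 2 to 4 of all 14113 tested genes lower and 1 to 15 higher. Limma's adjusted p was then 0.0627 to 0.142 for Itga2b and 0.104 to 0.194 for Rab27b. Over all 6 libraries left out in turn, their log2 fold changes stayed at -2.06 to -1.78 and -1.01 to -0.85. EdgeR on the recovered reads called Itga2b alone, where it called 0.184% of tested genes lower and 0.241% higher. DESeq2 called 9 lower (Itga2b, Rab27b, Gp1bb, Gp5, Treml1, Mmrn1, F2rl2, P2rx1 and P2ry1) and 1 higher (Selp), where it called 4.36% lower and 2.59% higher. With the length trend removed, an alternative chosen after seeing the data, limma called 5 lower (Itga2b, Gp5, Treml1, Mmrn1 and P2rx1) and 0 higher, where 1.69% of tested genes were called lower and 1.64% higher. Blocked by replicate number it called 0 of the 34, where 0% of tested genes were called lower and 0.00709% higher.

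**Figure D2:**
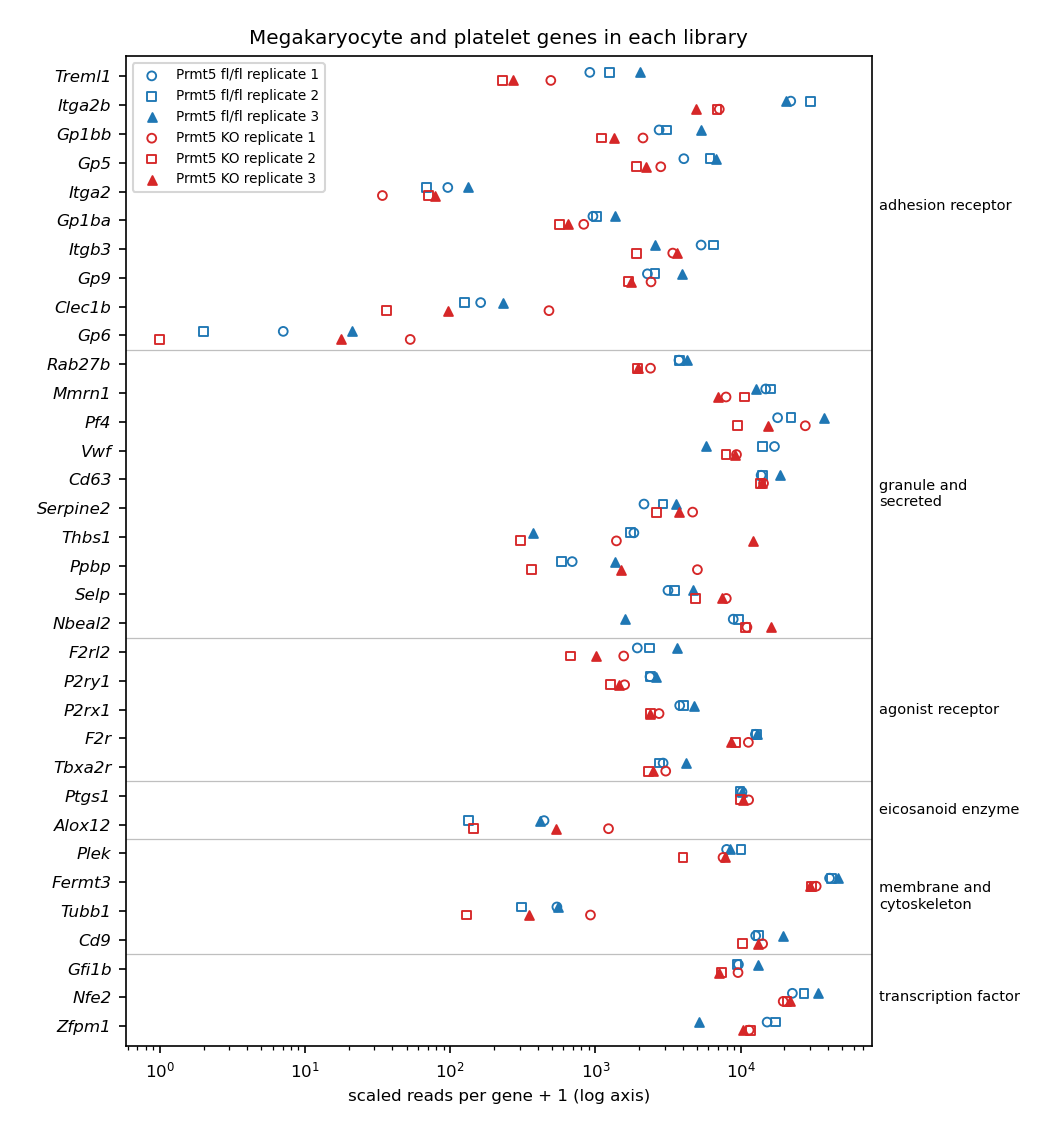
Scaled reads plus 1 (log axis) of the 34 genes in each of the 6 libraries, grouped by role, with Prmt5 fl/fl in blue and Prmt5 KO in red and 1 symbol per replicate. The 3 Prmt5 KO values of Itga2b (4926 to 7124) lie below the 3 Prmt5 fl/fl values (20679 to 30328), while those of Ppbp and Thbs1 spread widely.

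The adhesion receptors held the 2 lowest fold changes of the 34, those of Treml1 and Itga2b. Of 10 genes 1 fell (0.453% of tested genes) and 9 had fold changes below 0 (55.2% of tested genes). The median log2 fold change was -0.72. In 5 of them every Prmt5 KO library was below every Prmt5 fl/fl library (19.9% of tested genes). At an unadjusted limma p below 0.05, 5 were lower (13.6%), and DESeq2 called 4 lower (4.36%) and edgeR 1 (0.184%). Their summed level was 38682 to 51036 scaled reads in Prmt5 fl/fl and 14393 to 19765 in Prmt5 KO. Itga2b alone held 20679 to 30328 and 4926 to 7124 of it. Itga2b encodes the alpha IIb chain (CD41) of the fibrinogen receptor, a very early marker of the lineage. Its scaled reads, here and below in the order of replicates 1 to 3, were 22127, 30328 and 20679 in Prmt5 fl/fl and 7124, 6866 and 4926 in Prmt5 KO. The groups lay far apart, with Prmt5 KO at 25.9% of the Prmt5 fl/fl mean (log2 fold change -1.95, SE 0.20, limma adjusted p = 0.0195, or 0.103 when blocked by replicate number). Itgb3, the beta 3 chain (CD61) that pairs with it, was at 5338, 6470 and 2578 and at 3405, 1928 and 3623, and its groups overlapped through the low Prmt5 fl/fl replicate 3 (log2 fold change -0.63, limma adjusted p = 0.422). Without that library the 2 chains had log2 fold changes of -2.06 and -1.03 (limma adjusted p = 0.0174 and 0.0815). Itga2, the alpha 2 chain of a collagen-binding integrin, was low at 33.1 to 131 scaled reads, with overlapping groups.

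Treml1, a receptor of alpha granule membranes that reaches the platelet surface on activation, was at 913, 1247 and 2029 scaled reads in Prmt5 fl/fl and at 492, 229 and 269 in Prmt5 KO. The groups did not overlap, and the spread within Prmt5 fl/fl was wide (log2 fold change -2.08, SE 0.38, limma adjusted p = 0.0637). Leaving out Prmt5 fl/fl replicate 3, its highest library, it passed the threshold (log2 fold change -1.77, limma adjusted p = 0.0482).

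Gp1ba, Gp1bb, Gp9 and Gp5 encode the subunits of the receptor complex for von Willebrand factor, and all 4 had fold changes below 0 without passing the limma test. DESeq2 called Gp5 and Gp1bb lower (adjusted p = 0.000201 and 0.00955), but not Gp1ba or Gp9 (DESeq2 adjusted p = 0.116 and 0.304). Gp5 was at 4060, 6142 and 6727 scaled reads in Prmt5 fl/fl and at 2816, 1918 and 2217 in Prmt5 KO (log2 fold change -1.27, SE 0.23, limma adjusted p = 0.0637). Its groups did not overlap, and it passed the threshold without Prmt5 fl/fl replicate 3 (limma adjusted p = 0.0482) and with the length trend removed (limma, 0.0442). Gp1bb was at 2743, 3073 and 5293 and at 2123, 1098 and 1338 (log2 fold change -1.28, limma adjusted p = 0.106). Its single exon shares 1902 bases on the same strand with Sept5, so how reads were divided between the genes is uncertain, and Sept5 was listed at only 71.0 to 641 scaled reads. Gp1ba was at 960, 1013 and 1354 and at 829, 566 and 646, also without overlap (log2 fold change -0.71, limma adjusted p = 0.154). Gp9 was at 2278, 2569 and 3949 and at 2413, 1684 and 1770, and here Prmt5 KO replicate 1 lay above Prmt5 fl/fl replicate 1 (log2 fold change -0.56, limma adjusted p = 0.277). Prmt5 KO replicate 1 was the highest Prmt5 KO library for each of the 4 subunits.

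Clec1b, the podoplanin receptor CLEC-2, was low, and Gp6, the platelet collagen receptor, was barely present. Clec1b was at 161, 125 and 231 scaled reads in Prmt5 fl/fl and at 477, 35.3 and 95.7 in Prmt5 KO. Gp6 was at 6.07, 1 and 20.1 and at 52.0, 0 and 16.5. In both, Prmt5 KO replicate 1 was the highest and Prmt5 KO replicate 2 the lowest of all 6 libraries, and the groups overlapped. The log2 fold change of Clec1b was -0.50 by limma, 0.30 by edgeR and 0.36 by limma without Prmt5 KO replicate 2, so its direction was not stable.

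The promoters printed here are those of the 4 genes with the smallest p among the members with a RefSeq entry on GRCm38.p6, so that their sequence can be read beside their values. Each runs from 250 bases before to 50 bases after the annotated start, 5′ to 3′ along the gene. Capitals mark matches on either strand to AGATAA or else TGATAA, letters known from sites of GATA factors, to AGGAAG or CGGAAG, known from ETS factors, and to TGANTCA, known from NFE2 and AP-1, where N is any base and the 3 kinds were counted separately. The regions are chr11:102469834-102470133 (Itga2b, minus strand), chr16:30310732-30311031 (Gp5, minus strand), chr17:48359666-48359965 (Treml1, plus strand) and chr3:61002535-61002834 (P2ry1, an ADP receptor described below, plus strand).
Itga2b: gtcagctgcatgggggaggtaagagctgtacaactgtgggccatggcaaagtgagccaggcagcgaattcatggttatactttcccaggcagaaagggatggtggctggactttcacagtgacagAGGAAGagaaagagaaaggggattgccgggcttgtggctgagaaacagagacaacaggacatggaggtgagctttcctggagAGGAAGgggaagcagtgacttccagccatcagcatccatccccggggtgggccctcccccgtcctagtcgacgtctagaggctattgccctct
Gp5: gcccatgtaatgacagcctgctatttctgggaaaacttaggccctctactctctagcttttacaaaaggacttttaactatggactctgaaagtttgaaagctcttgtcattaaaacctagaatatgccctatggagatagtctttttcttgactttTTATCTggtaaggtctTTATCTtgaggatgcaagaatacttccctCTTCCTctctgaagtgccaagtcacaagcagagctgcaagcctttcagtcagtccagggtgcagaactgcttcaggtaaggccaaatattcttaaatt
Treml1: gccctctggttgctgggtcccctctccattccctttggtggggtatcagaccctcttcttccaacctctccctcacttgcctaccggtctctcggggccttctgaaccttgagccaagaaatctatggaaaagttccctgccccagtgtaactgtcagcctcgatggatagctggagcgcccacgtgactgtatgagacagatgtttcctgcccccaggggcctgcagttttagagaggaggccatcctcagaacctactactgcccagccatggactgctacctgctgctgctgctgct
P2ry1: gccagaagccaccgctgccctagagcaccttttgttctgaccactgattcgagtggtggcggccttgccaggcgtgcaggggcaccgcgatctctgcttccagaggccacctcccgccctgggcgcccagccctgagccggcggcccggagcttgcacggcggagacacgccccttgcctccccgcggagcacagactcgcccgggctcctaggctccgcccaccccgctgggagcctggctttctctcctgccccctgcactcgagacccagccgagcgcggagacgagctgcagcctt
Itga2b held 2 matches of the ETS letters, Gp5 held 2 of the GATA letters and 1 of the ETS letters, and Treml1 and P2ry1 held 0 of any. These 4 windows thus shared no match of the 3 kinds. Entries were found for 29 of the 34 genes, and not for Itgb3, Rab27b, Nfe2, Thbs1 and Vwf. The GATA letters were in 9 of the 29, against 10.5% of the promoters of tested genes and 19.0% of all 27025 promoters. The ETS letters were in 17, against 54.4% and 46.4%, and the NFE2 and AP-1 letters in 5, against 5.23% and 7.93%. A match is a description of the letters and not a bound site.

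Granule and secreted proteins went both ways. Of 10 genes 1 fell (0.453% of tested genes) and 0 rose (0.276%). Fold changes were below 0 for 5 (55.2% of tested genes) and above for 5. The median log2 fold change was 0.11 (-0.03 without Prmt5 fl/fl replicate 3). Rab27b, a small GTPase that docks dense granules for release, was at 3758, 3809 and 4296 scaled reads in Prmt5 fl/fl and at 2393, 1952 and 1963 in Prmt5 KO. Replicates lay close together in both groups, with no overlap (log2 fold change -0.91, SE 0.14, limma adjusted p = 0.0475, or 0.197 when blocked by replicate number). The call was also lost with median-of-ratios scaling (adjusted p 0.0679 by limma), quantile normalization (0.0636), edgeR (0.0653) and the length trend removed (0.0694), with log2 fold changes of -0.83, -0.89, -0.85 and -1.06. Mmrn1, multimerin 1, the factor V carrier of alpha granules, was at 14878, 16013 and 12728 and at 7930, 10643 and 7014, again without overlap (log2 fold change -0.79, SE 0.18, limma adjusted p = 0.0871). It passed the threshold without Prmt5 fl/fl replicate 3 (limma adjusted p = 0.0482).

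Selp and Nbeal2 were the genes with every Prmt5 KO library above every Prmt5 fl/fl library. Selp, P-selectin, which moves from the granule membrane to the surface of activated platelets, was at 3157, 3494 and 4690 scaled reads in Prmt5 fl/fl and at 7962, 4856 and 7394 in Prmt5 KO. Prmt5 KO replicate 2 exceeded Prmt5 fl/fl replicate 3 only narrowly (log2 fold change 0.82, SE 0.23, limma adjusted p = 0.130), and DESeq2 called the gene higher (adjusted p = 0.0103). Nbeal2, which is needed to form alpha granules, was at 8888, 9665 and 1608 and at 11043, 10826 and 16299. Prmt5 fl/fl replicate 3 was far below the other 5 libraries, and the log2 fold change was 1.27 with that library and 0.43 without it (limma adjusted p = 0.347 and 0.202).

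Vwf, von Willebrand factor, is the granule protein best known from platelet-biased stem cells. It was at 17095, 14080 and 5781 scaled reads in Prmt5 fl/fl and at 9359, 7915 and 9164 in Prmt5 KO. All Prmt5 KO libraries were below Prmt5 fl/fl replicates 1 and 2 and above replicate 3. The log2 fold change was -0.35 with all libraries (limma adjusted p = 0.649) and -0.82 without Prmt5 fl/fl replicate 3 (limma adjusted p = 0.0302).

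The chemokines of alpha granules varied widely within each group. Pf4, platelet factor 4, was the most abundant of the 34 per unit length, at 985 ± 390 RPKM (SD, n = 3; reads divided by gene length and library total) in Prmt5 fl/fl and 669 ± 356 in Prmt5 KO. Its scaled reads were 17966, 22238 and 37480 in Prmt5 fl/fl and 27872, 9549 and 15308 in Prmt5 KO. Ppbp, whose gene ends 2371 bases before the start of Pf4 on chromosome 5 and encodes another platelet chemokine, was at 690, 582 and 1369 and at 5036, 361 and 1490. Both were highest among the Prmt5 KO libraries in replicate 1 and lowest in replicate 2, and their groups overlapped (log2 fold changes -0.63 and 0.77, limma adjusted p = 0.460 and 0.663). Without Prmt5 KO replicate 1 the log2 fold change of Ppbp was -0.16.

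Thbs1, thrombospondin 1, was at 1838, 1746 and 369 scaled reads in Prmt5 fl/fl and at 1393, 304 and 12256 in Prmt5 KO. The single high library, Prmt5 KO replicate 3, was also the one with the highest summed granulocyte and monocyte markers (558454, against 57135 to 201524 elsewhere), whose part in the value was not tested. Serpine2, a protease inhibitor of alpha granules, was at 2158 to 3577 and 2644 to 4670, and Cd63, a tetraspanin of granule membranes, at 13833 to 18689 and 13728 to 14366, both with overlapping groups.

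All 5 receptors for platelet agonists had fold changes below 0 (55.2% of tested genes) and 4 had groups that did not overlap (19.9% lower), while limma and edgeR called 0 of them. At an unadjusted limma p below 0.05, 4 were lower (13.6% of tested genes), and DESeq2 called 3 lower (4.36%). P2ry1, a receptor for ADP, was at 2375, 2399 and 2617 scaled reads in Prmt5 fl/fl and at 1587, 1272 and 1457 in Prmt5 KO (log2 fold change -0.78, SE 0.14, limma adjusted p = 0.0637). P2rx1, an ion channel opened by ATP, was at 3802, 4064 and 4774 and at 2740, 2395 and 2374 (log2 fold change -0.75, SE 0.14, limma adjusted p = 0.0676). In both the replicates were tight and every Prmt5 KO library was well below the lowest Prmt5 fl/fl library. Both passed the threshold without Prmt5 fl/fl replicate 3 (limma adjusted p = 0.0392 and 0.0340). Part of the P2ry1 exons overlaps Gm37035 on the opposite strand, and strand was not recorded in these libraries.

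Among the thrombin receptors, F2rl2 (PAR3) was at 1940, 2357 and 3663 scaled reads in Prmt5 fl/fl and at 1564, 674 and 1003 in Prmt5 KO (log2 fold change -1.33, SE 0.35, limma adjusted p = 0.113). F2r (PAR1) was at 12631, 12877 and 12951 and at 11300, 9164 and 8629, a smaller difference with a very tight Prmt5 fl/fl group (log2 fold change -0.41, SE 0.13, limma adjusted p = 0.167). Neither had overlapping groups. Tbxa2r, the thromboxane receptor, was at 2742 to 4209 and 2304 to 3046, with overlap (log2 fold change -0.32, limma adjusted p = 0.446).

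**Figure D3:**
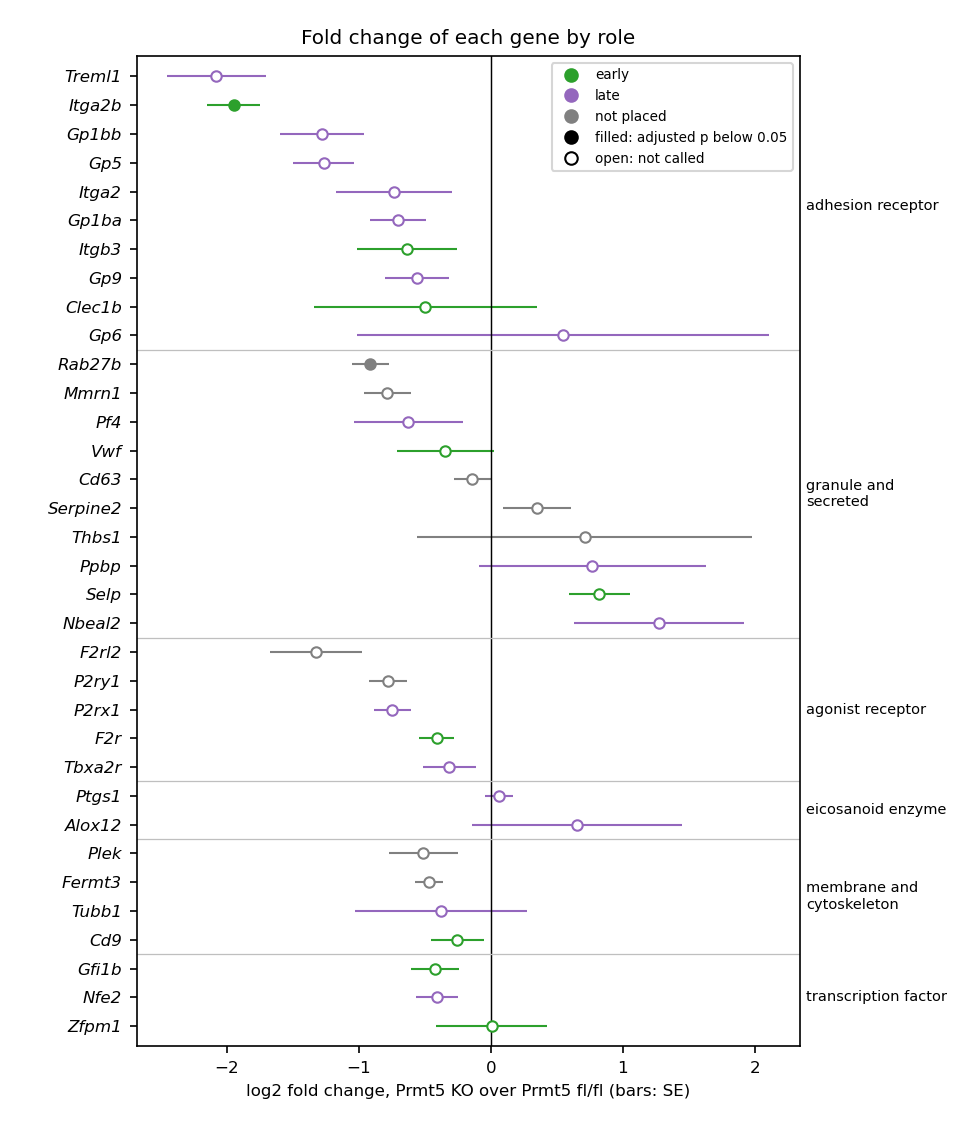
Log2 fold change of each gene, Prmt5 KO over Prmt5 fl/fl, with its standard error from limma, grouped by role and colored by early, late or unplaced stage. Filled points passed an adjusted p of 0.05 (Itga2b at -1.95 and Rab27b at -0.91), and all 5 agonist receptors lie left of 0.

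The eicosanoid enzymes did not share this direction. Ptgs1, cyclooxygenase 1, was at 10208, 9891 and 10225 scaled reads in Prmt5 fl/fl and at 11344, 9909 and 10431 in Prmt5 KO (log2 fold change 0.06, SE 0.11, limma adjusted p = 0.795). Alox12, the platelet 12-lipoxygenase, was at 441, 132 and 413 and at 1229, 143 and 533, with overlapping groups and its highest value in Prmt5 KO replicate 1 (log2 fold change 0.65, SE 0.80). Limma, edgeR and DESeq2 each called 0 of the 2, with 0 at an unadjusted limma p below 0.05 (13.6% of tested genes lower and 4.58% higher).

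The 4 membrane and cytoskeletal genes had log2 fold changes from -0.51 to -0.26, and limma, edgeR and DESeq2 each called 0 of them. At an unadjusted limma p below 0.05, 1 was lower (13.6% of tested genes). Fermt3, kindlin-3, which activates beta integrins, was next to Pf4 in level per unit length. It was at 40947, 42440 and 46534 scaled reads in Prmt5 fl/fl and at 33125, 30703 and 30135 in Prmt5 KO, tight in both groups and without overlap (log2 fold change -0.47, SE 0.11, limma adjusted p = 0.0871). Plek, pleckstrin, a protein kinase C substrate, was at 8003 to 10053 and 4005 to 7755, also without overlap but with a single low library, Prmt5 KO replicate 2. Cd9, a tetraspanin, was at 12688 to 19507 and 10348 to 14166. Tubb1, the beta 1 tubulin of the platelet marginal band, was low, at 542, 307 and 550 and at 923, 128 and 350, and the sign of its fold differed between limma (-0.38) and edgeR (0.07).

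The 3 transcription factors stayed abundant in both genotypes, and limma, edgeR and DESeq2 each called 0 of them. At an unadjusted limma p below 0.05, 1 (Nfe2) was lower (13.6% of tested genes). Nfe2, needed for platelet formation, was at 22712, 27311 and 34072 scaled reads in Prmt5 fl/fl and at 19632, 20879 and 21940 in Prmt5 KO, without overlap (log2 fold change -0.41, SE 0.16, limma adjusted p = 0.234). Gfi1b, a transcriptional repressor needed for erythroid and megakaryocytic differentiation, was at 9653, 9446 and 13203 and at 9587, 7364 and 7095 (log2 fold change -0.42, limma adjusted p = 0.277). The groups of Gfi1b overlapped through Prmt5 KO replicate 1. Zfpm1, FOG-1, the cofactor of GATA1, was at 15213, 17431 and 5148 and at 11437, 11621 and 10368. Its log2 fold change was 0.00 with all libraries and -0.55 without Prmt5 fl/fl replicate 3 (limma adjusted p = 0.997 and 0.0417), and it was -0.03 with quantile normalization and -0.12 by edgeR.

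Early and late genes were then set side by side. Early genes were taken as those that stem cells or early progenitors also carry (Itga2b, Itgb3, Vwf, Selp, Clec1b, Cd9, F2r, Gfi1b and Zfpm1). The 16 late genes were taken as those that rise in maturing megakaryocytes. This working division from general knowledge leaves 9 genes unplaced. It did not sort the genes by level in these stem cells. In Prmt5 fl/fl, late Pf4 and Nfe2 were abundant (985 and 225 RPKM), as was early Itga2b (159). Early Clec1b (3.29) and late Gp6 (0.18) were low. Of the early genes 1 of 9 fell by limma and by edgeR, and 7 had fold changes below 0, with a median log2 fold change of -0.41. DESeq2 called 1 early gene lower and 1 higher, and at an unadjusted limma p below 0.05, 2 were lower and 1 higher. Of the late genes 0 of 16 were called by limma or edgeR, and 11 had fold changes below 0, with a median of -0.49. DESeq2 called 4 late genes lower and 0 higher, and at an unadjusted limma p below 0.05, 6 were lower and 0 higher. Over all tested genes these shares were 55.2% with folds below 0, 4.36% lower and 2.59% higher by DESeq2, and 13.6% lower and 4.58% higher at the unadjusted p. They were 0.453% lower and 0.276% higher by limma, and 0.184% lower and 0.241% higher by edgeR. The medians were -0.40 and -0.29 without Prmt5 fl/fl replicate 3, and -0.29 and -0.35 with the length trend removed, so their order was not stable. Summed scaled reads of the early genes were 84768 to 107567 in Prmt5 fl/fl and 60098 to 74818 in Prmt5 KO, without overlap. Itga2b alone held 20679 to 30328 and 4926 to 7124 of these early sums, and with Itga2b left out they overlapped. Those of the late genes were 79227 to 114202 and 62059 to 91623, with overlap through Prmt5 KO replicate 1. Within libraries of the same replicate number the early medians were -0.16, -0.58 and -0.56 and the late medians 0.07, -0.72 and -0.75. Prmt5 fl/fl replicate 3 was the highest Prmt5 fl/fl library for 14 of 16 late genes and 5 of 9 early genes, against 43.7% of tested genes.

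The late genes did not move as 1 block. Treml1, Gp1bb and Gp5 had log2 fold changes below -1.2, while Ppbp, Alox12 and Gp6 had ones above 0.5 with overlapping groups. Nbeal2 had the highest of the late genes, 1.27, with groups that did not overlap. Prmt5 KO replicate 1 was the highest of the Prmt5 KO libraries for 26 of the 34 genes, against 30.2% of tested genes, and Prmt5 KO replicate 2 the lowest for 25, against 25.5%. Gp6, Clec1b, Ppbp and Tubb1 were highest of all 6 libraries in Prmt5 KO replicate 1 and lowest of all 6 in Prmt5 KO replicate 2, a pattern held by 0.666% of tested genes. These genes were singled out after their values were seen.

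**Figure D4:**
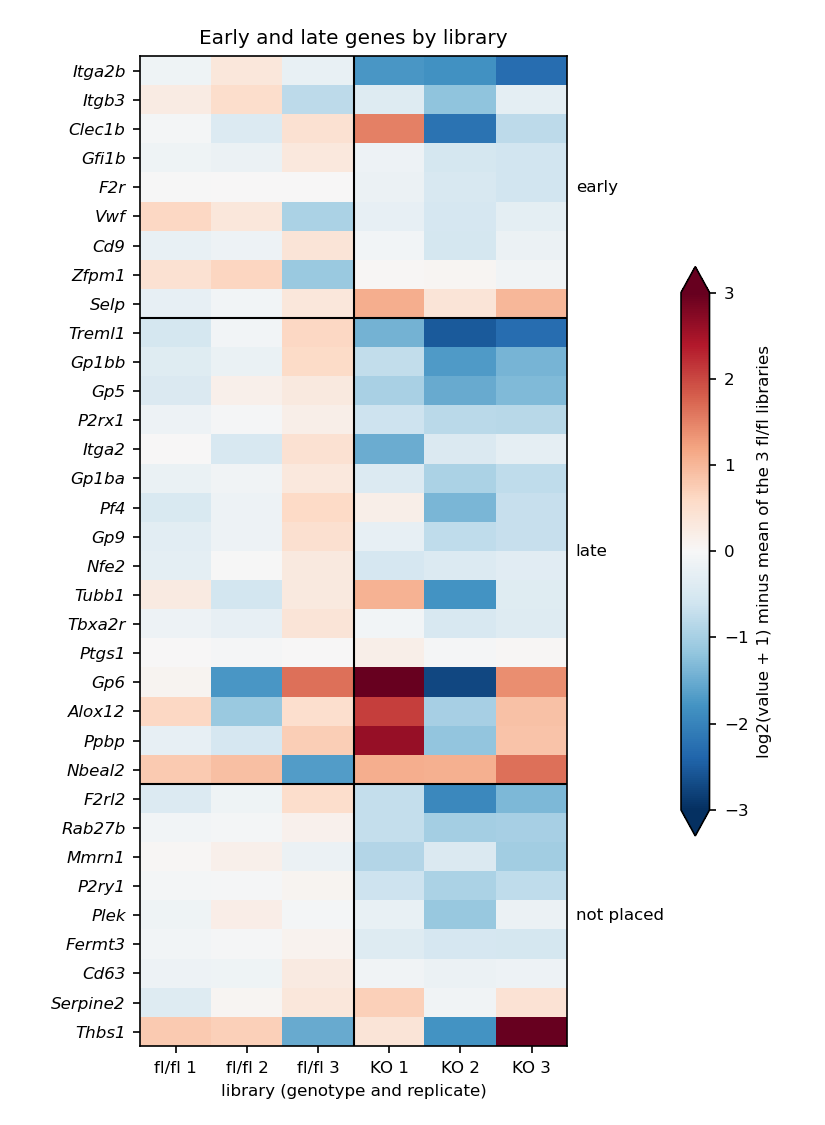
Log2(scaled reads + 1) minus the mean of the 3 Prmt5 fl/fl libraries, for early, late and unplaced genes (rows) in the 6 libraries (columns), with blue for lower and red for higher and the color limited to ±3. Itga2b, Treml1 and Gp5 are blue in all Prmt5 KO libraries, whereas Gp6, Ppbp and Clec1b are red in Prmt5 KO replicate 1 and blue in Prmt5 KO replicate 2.

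Per unit length, 27 of the 34 genes were at or above the median of tested genes in Prmt5 fl/fl and 11 were in the top 10%. Pf4, Fermt3 (374 ± 25.0 RPKM, SD, n = 3), Cd63 (288 ± 49.9), Cd9 (285 ± 70.7) and Nfe2 (225 ± 45.8) led in that group, followed by Itga2b (159 ± 33.9). In Prmt5 KO the level of Itga2b was 41.0 ± 7.82. Itga2 (0.52 ± 0.17) and Gp6 (0.18 ± 0.19) were lowest in Prmt5 fl/fl. The stem cells held a mixed set of abundant and nearly silent platelet genes in both genotypes, and the fold change had a Spearman correlation of -0.12 with this level and of -0.03 with gene length across the 34 genes, which share the 6 libraries. Over all 14113 tested genes the correlation of fold change with length was 0.24. The genes lie on 16 chromosomes, with 6 on chromosome 11, including Itga2b (102453297 to 102470122, minus strand) and Itgb3 (104608000 to 104670476, plus strand, GRCm38 with GENCODE M21). Exons of 7 of them overlap a gene on the opposite strand.

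Other genes of the lineage were given by 4 lists of regulators, signaling, granule and cytoskeletal genes. Of 79 genes, 77 could be tested and limma called 0 over all genes tested, with 16 lower and 2 higher at an unadjusted p below 0.05 (13.6% and 4.58% of all tested genes). EdgeR called 0, and DESeq2 called 3 lower and 1 higher, where it called 4.36% and 2.59% of all tested genes. Their median log2 fold change was -0.11. Gata1, the erythroid and megakaryocytic GATA factor, named after its values were seen, was at 4428, 4734 and 6961 scaled reads in Prmt5 fl/fl and at 2835, 2131 and 2482 in Prmt5 KO (log2 fold change -1.09, SE 0.20, limma adjusted p = 0.0676). Its groups did not overlap, and without Prmt5 fl/fl replicate 3 limma called 4 of the 77 lower, Gata1, Runx1 and Unc13d among them, and 0 higher (1.82% and 0.857% of all tested genes).

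In the signaling, granule and cytoskeletal lists the smallest p belonged to Ptger3, a prostaglandin E receptor (log2 fold change -0.65, limma adjusted p = 0.101), Timp3, a metalloproteinase inhibitor (-0.82, adjusted p = 0.160), and Tuba8, an alpha tubulin (-0.69, adjusted p = 0.154). Medians of the 4 lists were -0.18 for regulators, -0.05 for signaling, -0.22 for granules and secretion and 0.03 for cytoskeleton and lipid enzymes. Of the 16 regulators tested, the list with Gata1 and Runx1, 6 were lower and 1 higher at an unadjusted limma p below 0.05. Over all tested genes these shares were 13.6% and 4.58%.

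Markers of red cell precursors, a lineage close to megakaryocytes, were read as a further list. Of 9 tested, all had fold changes below 0 (55.2% of tested genes) and 1 fell by limma (0.453% of tested genes). This was Klf1, an erythroid transcription factor, from 1446 ± 612 to 319 ± 70.4 scaled reads (SD, n = 3 each). Its limma adjusted p was 0.0476, or 0.161 when blocked by replicate number. The call was also lost with median-of-ratios scaling (limma adjusted p = 0.0669), quantile normalization (limma, 0.0578) and edgeR (0.0653). It held by DESeq2 (adjusted p = 3.29e-07), with the length trend removed (limma, 0.0423) and without Prmt5 fl/fl replicate 3 (limma, 0.0417). Without any other single library limma lost it (0.0773 to 0.220). Slc4a1, an anion exchanger of red cells, was at 1395, 218 and 86.8 scaled reads in Prmt5 fl/fl and at 2.36, 0 and 110 in Prmt5 KO. The other defining markers were variable or low, with Mpo at 4549 to 53564 scaled reads over the 6 libraries, Ms4a2 at 16.0 to 238, Mcpt8 at 8.47 to 2225 and Emcn at 681 to 1408. The part of these cells in the values of the platelet genes was not tested.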

How the data were processed

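Per the labels' protocols, Trizol RNA was amplified with SMART-Seq v4 and made into unstranded Nextera XT libraries. STAR, featureCounts and mm10 are named in the submitters' processing notes, without versions. The authors deposited raw counts for Prmt5 fl/fl replicate 2 and, for the other 5 libraries, a signal scaled to its total of 44704636. Undoing the scaling gave whole reads for 100% of values in each library (tolerance 1e-06), and edgeR called 60 genes on them.

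The deposited signal was taken to log2(value + 1) for the 14113 genes whose mean reached 10 scaled reads. Limma with an intensity trend (two-sided, 4 residual degrees of freedom) compared the genotypes, with Benjamini-Hochberg adjustment over all these genes and a threshold of 0.05. This scale understates folds of low genes. Each library is a separate pool of mice, and the p-values measure the spread between such pools. R 4.3.3, limma 3.58.1, edgeR 4.0.16, DESeq2 1.42.0, Python 3.11.15 and matplotlib 3.10.9 were used. The limma step was tested on simulated data.

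Libraries with the same replicate number share a title prefix, whose meaning the labels do not give, and animals were matched by litter and sex. The numbers were therefore taken to pair the libraries in the blocked fit, while the main fit did not use them. Deviations from group means correlated at only -0.14, 0.07 and -0.26 within these pairs. The members, the lists and the early and late division were chosen with earlier results of these data known. The text names Prmt5, all 34 members, from each list of other pathway genes up to 4 called genes or else the gene with the smallest p, and from each marker list its defining and called genes. Some genes that this rule takes are not reported here. Other named genes were chosen after their values were seen. All 34 members matched GENCODE M21 by symbol, Mpig6b was found as G6b, and Ly6g was not analysed here. Promoters came from RefSeq on GRCm38.p6, the first entry per symbol. RPKM were computed from the recovered reads and the deposited gene length.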

Additional observations from a re-analysis of the deposited data

How the results depend on the processing

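Of the 34 genes, 26 kept their direction in every alternative run. Against 64 lower and 39 higher genes over all tested, limma called 22 and 35 with median-of-ratios size factors, 26 and 39 with quantile normalization, 38 and 34 with no filter on low values, 0 and 1 with the replicate block, and 239 and 231 with the length trend removed. EdgeR called 26 and 34, and DESeq2 616 and 365. Leaving out each library in turn gave 2 to 257 lower and 1 to 121 higher genes. Of the members, 1 was lower with median-of-ratios size factors, with quantile normalization and by edgeR, 9 were lower and 1 higher by DESeq2, 0 were called with the replicate block, 5 were lower with the length trend removed, and 0 to 9 were lower without each library. Of the other pathway genes DESeq2 called 3 lower and 1 higher, 3 were lower with the length trend removed, and 0 to 4 without each library. The replicate block changed no other call beyond those of Itga2b, Rab27b, Klf1 and Prmt5 (limma adjusted p = 0.0618) among the genes named.

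The sign turned for Clec1b (log2 fold change 0.30 by edgeR and 0.33 by DESeq2), Tubb1 (0.073 and 0.094), Zfpm1 (-0.12 and -0.090, and -0.033 with quantile normalization), Cd63 (0.068 with the length trend removed), Emcn (0.11 likewise), Mcpt8 (-0.79 by edgeR and -0.76 by DESeq2) and Cdh5 (-0.013 with a pseudocount of 0.5). Without each library in turn, log2 fold changes that changed sign ran from -0.67 to 2.19 for Gp6, -1.50 to 0.36 for Clec1b, -0.16 to 1.74 for Ppbp, -0.70 to 1.96 for Thbs1, -0.063 to 1.48 for Alox12, -1.08 to 0.33 for Tubb1, -0.55 to 0.33 for Zfpm1, -1.46 to 2.17 for Cd3e, -0.57 to 3.36 for Mcpt8, -0.90 to 1.72 for Cdh5 and -0.31 to 0.21 for Emcn. The cause of these changes was not tested. Counting error weighs most on the members with few reads, such as Gp6, Itga2 and Clec1b, and on the lowest markers.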
